A study of Mus musculus with 2 samples.

Results

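The microRNA loci described here are Mir431, Mir433, Mir127, Mir434 and Mir136, which lie antisense to Rtl1 in the imprinted Dlk1-Dio3 region of mouse chromosome 12. They were chosen by name and position, not by a rule on their counts, but with earlier results of these data known. They are 5 of the 2202 annotated microRNA loci in the files. Libraries of small RNA under 30 nt came from left cerebral cortex of B6CASTF1/J females aged 14 days, as 1 group with 2 replicates. B6CASTF1/J is an F1 hybrid of C57BL/6J and a CAST strain, and the labels record no treatment, transgene or deletion. One label speaks of several females and the other of a single female, and both give the same donor record. The spread between the libraries may therefore be partly technical.

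Rtl1 is a gene of retrotransposon origin whose messenger RNA is expressed from the paternal chromosome. The microRNAs on the opposite strand come from a maternally expressed transcript. Each of them is cut from sequence that pairs fully with the Rtl1 messenger RNA, and these microRNAs are known for guiding its cleavage. The wider Dlk1-Dio3 region encodes one of the largest groups of microRNAs in mammals, and many of its members are expressed in brain.

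The mature sequences are printed first, because the pairing with Rtl1 and the absence of family members both rest on them. A hairpin can give 2 mature strands, named 5p and 3p. The counts are per hairpin and do not separate them. All 5 loci were found in the RefSeq microRNA table (GRCm38.p6), whose hairpins had the same coordinates and sequence as those of GENCODE M21 on mm10. Each line runs 5′ to 3′ and the seed, bases 2 to 8, which directs pairing with targets, is in capitals.
miR-431-5p: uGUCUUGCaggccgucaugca
miR-431-3p: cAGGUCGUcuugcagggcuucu
miR-433-5p: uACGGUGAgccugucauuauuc
miR-433-3p: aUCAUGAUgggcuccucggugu
miR-127-5p: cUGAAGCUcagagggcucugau
miR-127-3p: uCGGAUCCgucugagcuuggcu
miR-434-5p: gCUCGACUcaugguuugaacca
miR-434-3p: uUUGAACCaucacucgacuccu
miR-136-5p: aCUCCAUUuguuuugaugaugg
miR-136-3p: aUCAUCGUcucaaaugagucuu

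The 10 mature sequences carried 10 different seeds, so no 2 of these microRNAs belong to one seed group. None of the 10 seeds was also the seed of any other mouse mature sequence of the table. Among all 1679 mature names in it, 72.1% had a seed of their own. No other GENCODE M21 gene held any of the 10 mature sequences in its transcripts on the same strand, and none of the 5 hairpins shared a stretch of 20 nt with another microRNA locus, whereas 1084 of the 2202 loci did. This bears on the counts, because reads that mapped to several places entered no gene count.

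All 10 mature sequences stand in exact complement in the Rtl1 transcript, inside its coding sequence, which follows from the position of the hairpins opposite it. The sequences are those of the reference genome, and the CAST allele was not examined. The complementary stretches of Mir127, Mir433 and Mir434 are shown for the 3p strands, as they read in the Rtl1 messenger RNA with T for U, 5′ to 3′, with the bases opposite the seed in capitals.
Rtl1 opposite miR-127-3p: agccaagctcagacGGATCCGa
Rtl1 opposite miR-433-3p: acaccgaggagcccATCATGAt
Rtl1 opposite miR-434-3p: aggagtcgagtgatGGTTCAAa
These stretches lie at codons 832 to 839, 1201 to 1208 and 273 to 280 of the 1744 Rtl1 codons.

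Rtl1 is annotated on the minus strand of chromosome 12 from 109589193 to 109600330, and its coding sequence from 109590172 to 109595403 lies in 1 exon (GENCODE M21, mm10). The 5 hairpins lie on the plus strand. Mir431 spans 109590447 to 109590537, Mir433 spans 109591715 to 109591838, and Mir127 spans 109592846 to 109592915. Mir434 spans 109594506 to 109594599, and Mir136 spans 109595327 to 109595388. Each lies wholly opposite that coding exon, and none has an annotated gene on its own strand. Together the hairpins cover 441 nt, which is 8.43% of the 5232 nt of coding sequence, and they are 727 to 1590 nt apart. Mir136 lies 15 nt from the first base of the Rtl1 start codon, and Mir431 lies nearest to the stop codon, opposite codons 1623 to 1653.

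**Figure D1:**
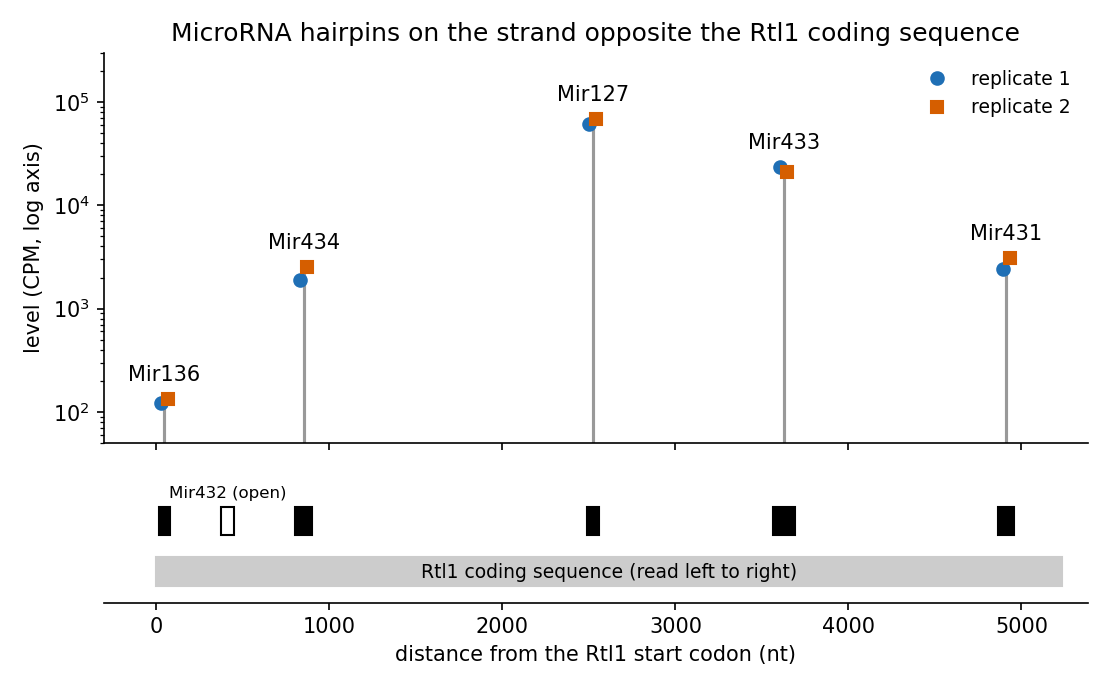
The upper panel plots the level of each locus in each library (CPM, log axis) against the distance from the Rtl1 start codon in nt, and the lower panel draws the hairpins above the Rtl1 coding sequence to scale; a grey line marks the middle of each hairpin, and the points stand slightly to either side of it. Mir127, near the middle, was highest at 65239 CPM and Mir136, 15 nt from the first base of the start codon, was lowest at 127 CPM. Mir432, drawn open, had 0 reads.

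The Mir127 hairpin is shown with its mature strands in capitals, since it gave the most reads of the 5. The Mir431 and Mir434 hairpins are shown with the longest stretch shared by their own 5p and 3p strands in capitals, because these stretches repeat along the hairpin.
Mir127: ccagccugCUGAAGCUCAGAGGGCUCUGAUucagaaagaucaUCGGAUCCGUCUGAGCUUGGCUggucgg
Mir431: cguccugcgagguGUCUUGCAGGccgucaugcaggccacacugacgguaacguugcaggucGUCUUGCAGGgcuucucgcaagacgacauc
Mir434: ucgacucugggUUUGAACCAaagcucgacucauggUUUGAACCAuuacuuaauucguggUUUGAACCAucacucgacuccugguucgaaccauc
In Mir431 the shared stretch of 10 nt stood at positions 14 and 62 of the hairpin, 48 nt apart, with a copy of 1 mismatch at position 26. In Mir434 a stretch of 9 nt stood at positions 12, 36 and 60, spaced by 24 nt, and a copy with 1 mismatch followed at position 84. In Mir433, Mir127 and Mir136 the longest stretch shared by both strands had 5, 5 and 4 nt. Over the 677 hairpins with 2 mature strands in the table the median was 4 nt, and 4 pairs (0.591%) shared 10 nt or more.

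The hairpins ranged from 62 nt (Mir136) to 124 nt (Mir433), against a median of 89 nt over all 2202. Their GC content ran from 40.3% in Mir136 to 60.4% in Mir431, against a median of 50.8%. The folding energy predicted with RNAfold was lowest per nt in Mir127, at −0.501 kcal/mol, and highest in Mir433, at −0.361 kcal/mol. The lower and upper quartiles of all hairpins were −0.440 and −0.304 kcal/mol per nt. Mir127, Mir431 (−0.477) and Mir136 (−0.455) were below that range, and Mir433 and Mir434 (−0.398) within it. Whether predicted energy goes with the level of a locus was not tested.

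Levels are reads counted on the RNA strand scaled to 1000000 gene-assigned reads (CPM). The libraries held 2740332 and 3207941 such reads out of 7745369 and 9627908, and 40.6% and 37.9% of all reads mapped to several places. Of 12 neuronal marker loci 8 reached 10 reads in both libraries, and the summed level of the list was 33386 CPM in replicate 1 and 42518 CPM in replicate 2. Those that did not included Mir124a-1 (6 and 10 reads), Mir124a-3 (0 and 7) and Mir9-2 (3 and 9). Reads that mapped to several places are in none of the marker sums given here. A sum can hide loci that go opposite ways. Of the neuronal list, Mir128-1, Mir128-2 and Mir137 had a higher CPM in replicate 2, and Mir132, Mir138-1 and Mir138-2 a lower one. Of the microglial and leukocyte list, Mir150 was higher in replicate 2 and Mir155 lower. Endothelial and mural markers summed to 21215 and 13607 CPM, oligodendrocyte markers to 4275 and 1477 CPM, and microglial and leukocyte markers to 691 and 1233 CPM. The muscle loci Mir133b, Mir1a-1, Mir1a-2, Mir133a-1 and Mir133a-2 had 0 reads in both libraries, while Mir206, the sixth of that list, had 79 and 100. Erythroid markers summed to 952 and 564 CPM, and the liver locus Mir122 had 60.9 and 43.0 CPM. The part of these cell types in the levels below was not tested, and in bulk tissue fewer cells of a type and less RNA per cell cannot be told apart.

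The 5 loci supplied 9.26% of the gene-assigned reads on average, and nearly all of it came from Mir127 and Mir433. They held 244679 reads in replicate 1, a share of 8.93% (exact binomial 95% interval 8.90 to 8.96%). In replicate 2 they held 307836 reads, a share of 9.60% (9.56 to 9.63%). The mean was 9.26 ± 0.472% (SD, n = 2). The intervals cover counting error only, and those of the libraries do not overlap. As a share of all reads sequenced, the 5 loci held 3.16% in replicate 1 and 3.20% in replicate 2.

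Mir127, whose loss in mice is known to disturb the placenta, was counted 168707 times in replicate 1 and 221070 times in replicate 2. This corresponds to 61564 CPM (95% interval 61280 to 61850) and 68913 CPM (68636 to 69191), with a mean of 65239 ± 5196 CPM (SD, n = 2). Replicate 2 was the higher library on this scale, by 1.12-fold, and Mir127 ranked 4 and 3 among all loci in replicates 1 and 2. These ranks, like those of the other loci below, rest on uniquely mapped reads only. Loci with copies elsewhere in the genome may stand too low in them, so they are no ranks among all microRNAs of the tissue. Mir127 on its own made up 2.18% and 2.30% of all reads sequenced.

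Mir433, a microRNA also studied in bone-forming cells, was counted 63890 and 68320 times. Its levels were 23315 CPM in replicate 1 and 21297 CPM in replicate 2, a mean of 22306 ± 1427 CPM (SD, n = 2), at ranks 9 and 11. Here replicate 1 was the higher library, whereas replicate 2 was higher in the other 4 loci.

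Mir431, described in the growth of sensory axons, was counted 6593 and 9965 times, giving 2406 CPM (replicate 1) and 3106 CPM (replicate 2), with a mean of 2756 ± 495 CPM (SD, n = 2). Mir434 was counted 5155 and 8058 times, which is 1881 and 2512 CPM (mean 2197 ± 446 CPM, SD, n = 2). Both were lower in replicate 1, and the 2 loci had the widest relative spread of the 5, with an SD of 18.0% and 20.3% of the mean. The level of Mir434 in replicate 2 lay above that of Mir431 in replicate 1, so the ranges of the 2 loci overlap across libraries.

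Mir136, the locus nearest to the Rtl1 start codon, was counted 334 and 423 times. Its levels of 122 CPM (95% interval 109 to 136) and 132 CPM (120 to 145) gave a mean of 127 ± 7.05 CPM (SD, n = 2). The counting intervals of the libraries overlap, and Mir136 ranked 196 and 200. It is thus present at a low level in both libraries, although it lies 727 nt from Mir434.

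**Figure D2:**
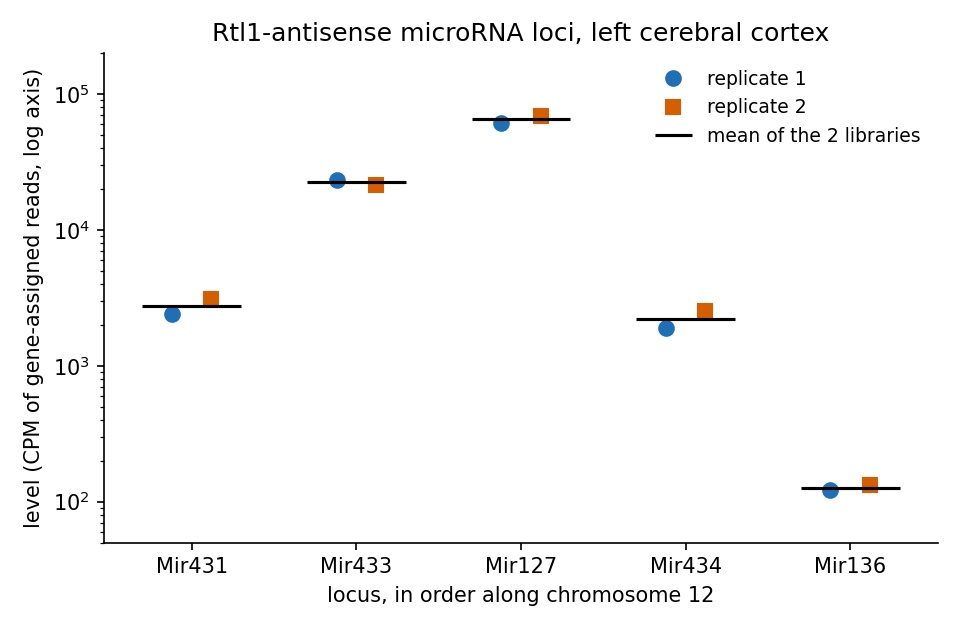
Level of each locus in each library (CPM of gene-assigned reads, log axis), with loci in order along chromosome 12, points for the 2 libraries and a line at their mean. The loci spread over a range from 127 to 65239 CPM, and the 2 libraries lie close together at each locus.

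The order of the loci was the same in both libraries: Mir127, Mir433, Mir431, Mir434 and Mir136. Mir127 was above Mir433 by 2.64-fold in replicate 1 and 3.24-fold in replicate 2. Mir433 was above Mir431 by 9.69-fold and 6.86-fold. The step from Mir431 to Mir434 was the smallest, at 1.28-fold and 1.24-fold (SD 0.030, n = 2). Mir431 was thus higher within each library, although the levels of the 2 loci overlap between libraries; with 2 libraries this order was not tested. Mir434 was above Mir136 by 15.4-fold and 19.0-fold. From the highest to the lowest locus the fold was 505 and 523, within less than 5 kb of chromosome (4942 nt from the first to the last hairpin). The mature strands are 21 or 22 nt long, so the levels were not divided by length. How well each sequence is captured in a library was not measured, and a fold between loci carries any such difference.

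Shares within the 5 loci do not depend on how the libraries are scaled. Mir127 made up 69.0% of their reads in replicate 1 (exact binomial 95% interval 68.8 to 69.1%) and 71.8% in replicate 2 (71.7 to 72.0%). Mir433 made up 26.1% (25.9 to 26.3%) and 22.2% (22.0 to 22.3%), so its share was lower in replicate 2 while that of Mir127 was higher. Mir431 made up 2.69% and 3.24%, Mir434 2.11% and 2.62%, and Mir136 0.137% in both libraries. The intervals of the libraries overlap for Mir136, the locus with the fewest reads, and not for the other 4. They cover counting error only. The share of loci with intervals apart was not computed over all loci, so this count is no result about the 5 loci. The exact binomial test between libraries described below is another measure and gives no background for these intervals. By that test, 3 of the 5 loci and 58.4% of all detected loci differed.

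GENCODE M21 annotates 2 further microRNA loci opposite or within the same exon. Mir432 (109594956 to 109595030, plus strand), between Mir434 and Mir136, had 0 reads in both libraries, so that a level of up to 1.09 CPM (replicate 1) or 0.935 CPM (replicate 2) remains possible. The mature sequence of Mir432 was found in no other gene on the same strand, and its hairpin shares no 20 nt with another locus. Mir3071 (109595318 to 109595397) lies on the minus strand, the strand of Rtl1, and overlaps Mir136. It also had 0 reads on its own strand in both libraries. The mature strands of these loci overlap by 20 nt (miR-136-5p with miR-3071-3p) and 19 nt (miR-136-3p with miR-3071-5p).

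The strand on which reads were counted decides the value of Mir136. In the deposited column that disregards strand Mir136 had 0 reads in both libraries, whereas the column of the RNA strand gave 334 and 423. The same 334 and 423 reads stand at Mir3071 in the column of the opposite strand. Mir431, Mir433, Mir127 and Mir434, which overlap no other microRNA locus, had identical counts in the column without strand and the column of the RNA strand. On the opposite strand, which is that of Rtl1, these 4 loci had 0 reads in either library, which allows up to 3 reads.

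Within the Dlk1-Dio3 region the 5 loci took a large share. A list of 58 loci of the region, which includes them, held 22.4% and 23.5% of gene-assigned reads, and the 5 loci held 39.9% of these in replicate 1 and 40.8% in replicate 2 (40.4 ± 0.620%, SD, n = 2). Mir127 and Mir433 ranked 1 and 3 in the list by mean level. Mir770, which lies within the maternally expressed non-coding gene Meg3, stood between them at 36617 ± 6635 CPM (SD, n = 2). Mir431 ranked 13, Mir434 ranked 18 and Mir136 ranked 40. The median level over the detected loci of the list was 795 CPM when the 5 loci were left out, against 2756 CPM for the 5 loci and 149 CPM over all 389 detected loci. Mir136 was thus below the median of its own region and below that of all detected loci, both taken over uniquely mapped reads.

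**Figure D3:**
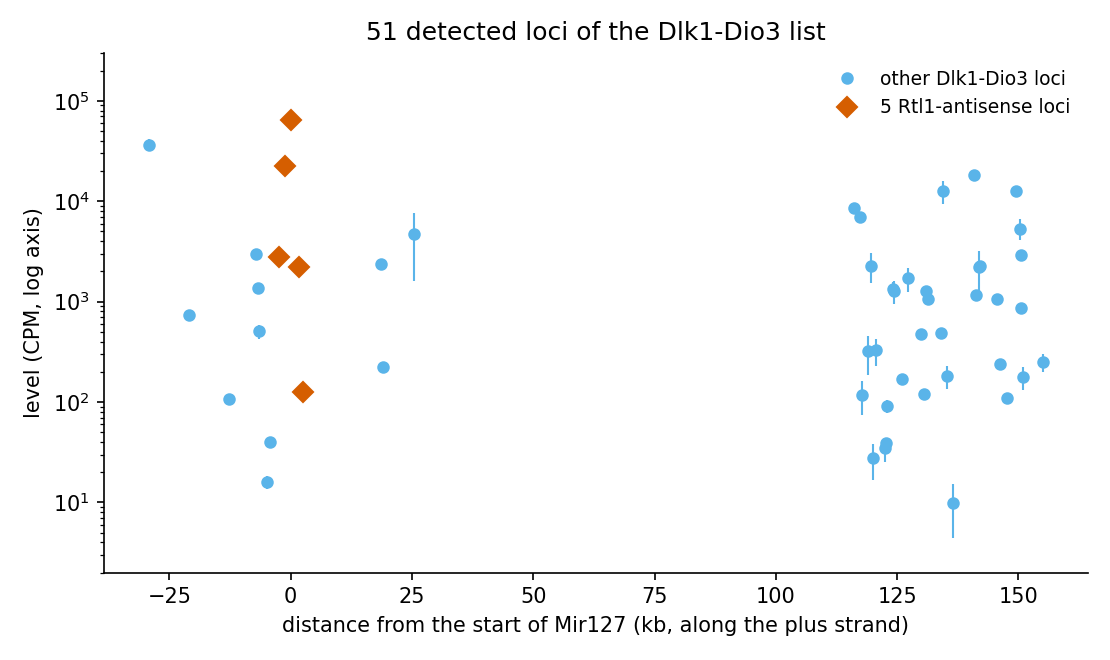
Mean level of each detected locus of the Dlk1-Dio3 list (CPM, log axis) against its distance from the start of Mir127 in kb, with a line between the values of the 2 libraries. The 5 Rtl1-antisense loci (diamonds) include the highest locus of the region, Mir127 at 65239 CPM, and reach down to Mir136 at 127 CPM.

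Loci next to each of the 5 in rank of mean level came from other chromosomes in most cases. Mir127 stood between Mirlet7g (70800 ± 24921 CPM) and Mirlet7b (64261 ± 7866 CPM), both of the let-7 family known from differentiated tissue. The SD of Mirlet7g was wider than its distance from Mir127. Mir433 stood between Mir744 and Mirlet7e, Mir431 between Mir320 and Mir674, Mir434 between Mir668 and Mir138-2, and Mir136 between Mir669o and Mir6944. Of these, Mir668 lies in the Dlk1-Dio3 region.

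The loci most alike in both libraries were found from the Euclidean distance over the pair of log2(CPM + 1) values, which covers 2 libraries only. Nearest to Mir127 was Mirlet7b (distance 0.071), then Mir139 (0.53). Nearest to Mir431 was Mir369 (0.092), a locus of the same region at 2883 ± 511 CPM, then Mir30e (0.11). Mir434 was nearest to Mir485 (0.17), Mir136 to Mir376b (0.11), and both of these also lie in the Dlk1-Dio3 region. Their second neighbours were Mir181c (0.18) and Mir30b (0.23). Mir433 had Mirlet7e (0.26) and Mir744 (0.31) as its nearest loci. For 3 of the 5 loci the nearest locus was another one of the region. The list of the region held 51 of the 389 detected loci, these 5 included. Whether 3 of 5 is more than this background gives was not tested.

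The last comparison asks how far the 5 loci differed between the libraries. A locus counted as detected if both libraries had 10 reads or more there, which 389 loci did. For each, a two-sided exact binomial test compared the libraries' reads after TMM scaling (trimmed mean of M values), with Benjamini-Hochberg adjustment over the 389. The test covers counting error and compares these libraries, not conditions. Of the 5 loci 3 passed it, 2 higher and 1 lower in replicate 2. Over all detected loci 227 of 389 passed (58.4%), 112 higher (28.8%) and 115 lower (29.6%), so the count among the 5 is near the background and is no result about them.

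On the TMM scale Mir433 was lower in replicate 2, with a log2 ratio of −0.30 (95% interval −0.32 to −0.29, adjusted p = 3.45e-316 by the exact binomial test). Mir434 was higher by 0.24 (0.19 to 0.30, adjusted p = 4.66e-21) and Mir431 by 0.20 (0.15 to 0.24, adjusted p = 3.10e-17). Mir127 had a ratio of −0.0098 (−0.019 to −0.00064, adjusted p = 0.0595) and Mir136 of −0.059 (−0.27 to 0.15, adjusted p = 0.676). Neither passed the test, although the interval of Mir127, which is not adjusted for the number of loci, leaves out 0. Both ratios were above 0 when the libraries were scaled by their totals alone (0.16 and 0.11). That scaling moved the median log2 ratio of all detected loci from −0.0098 to 0.16 and the calls to 159 higher and 77 lower, and 4 of the 5 loci then passed, 3 higher and 1 lower. The directions of Mir433, Mir434 and Mir431 were the same under each scaling tried.

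The median log2 ratio was −0.0098 over the 5 loci and −0.0098 over all detected loci, and Mir127 itself was the middle locus of both. In size, the ratios of the 5 loci ran from 0.0098 to 0.30, each below the median size of 0.40 over all detected loci. Over the 200 loci at least as abundant as Mir136 that median was 0.34. Of the 46 other detected loci of the region list 32 passed the test, 20 higher and 12 lower, with a median log2 ratio of 0.17. The widest of them was Mir370 of the Rian region, at 2.08.

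**Figure D4:**
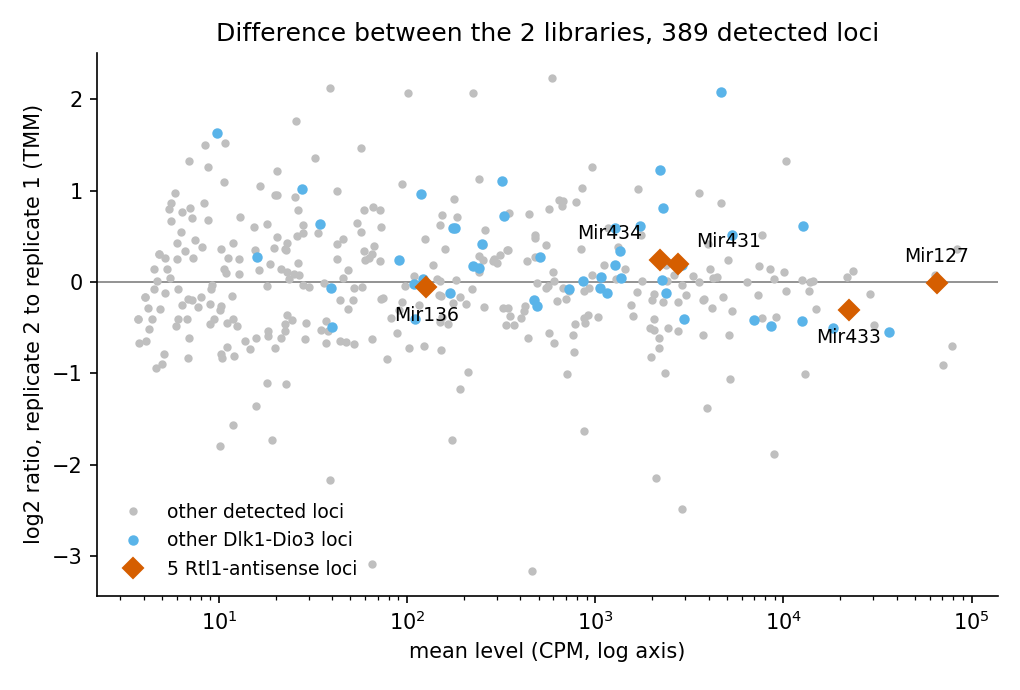
Log2 ratio of replicate 2 to replicate 1 (TMM scale) against mean level (CPM, log axis) for the 389 detected loci. The 5 Rtl1-antisense loci (diamonds) lie between −0.30 and 0.24, while other loci of the Dlk1-Dio3 list (blue) reach 2.08.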

How the data were processed

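The authors deposited raw counts of reads for each microRNA gene, based on mm10 and GENCODE M21 according to the file lists that accompany them. How reads were trimmed, aligned and counted is not given in the sources used here. Of 3 unnamed count columns, 1 disregards strand, 1 counts the RNA strand and 1 the opposite strand, as read from the values. The RNA strand was used. Rows that name no gene (unmapped 18.1% and 22.8%, several places 40.6% and 37.9%, no microRNA gene 5.93% and 6.03% of reads) were left out of library sizes. No molecular identifiers are stated, so intervals and floors cover counting error only, and a count of 0 allows up to 3 reads. All 2202 identifiers matched GENCODE M21.

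TMM factors came from edgeR 4.0.16 and alternative size factors from DESeq2 1.42.0. Tests and intervals used scipy 1.17.1, and folding energies ViennaRNA 2.7.2. The exact binomial test was run on simulated counts that held counting error only, with library totals in place of TMM scaling. That run cannot show how the test behaves where libraries differ by more than counting error. The members and lists were chosen with earlier results of these data known. Of the list of the region, 1 name (Mir2392) had no match. Named loci were the 5 loci, others annotated in the Rtl1 exon, the 2 nearest in level pattern, neighbours in rank, and the 3 most abundant of the region list. Mir370 and single loci of the marker lists were named after their values were seen. Alternatives were the column without strand, minimums of 5 and 50 reads or none, library totals, DESeq2 size factors, TMM sizes for levels, a pseudocount of 5, the region by position, and each replicate left out. Groups of 2 libraries are too small to look for outlying samples.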

Additional observations from a re-analysis of the deposited data

Results flagged for a closer look

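The column of the opposite strand, which no level above uses, held 334 reads at Mir3071 in replicate 1 and 423 in replicate 2, above the 3 reads that a count of 0 allows. Mir3071 overlaps Mir136 on the other strand, so its opposite strand is the RNA strand of Mir136. The counts equal those of Mir136 there and are the same reads, not a separate signal at Mir3071.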

How the results depend on the processing

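Leaving aside omitted replicates, 40 of 50 recomputed levels, ratios, shares and folds kept their direction and side of the threshold or, where there was no test, moved by less than the SD between libraries. The 40 include the Mir127 log2 ratio with DESeq2 size factors, which was −7.1e-15. That scaling sets the middle locus, here Mir127, to a ratio of 0, so its direction there is rounding and shows no agreement. In the column without strand Mir136 had a level of 0 CPM, Mir433 had 23947 CPM, and the 5 loci held 9.93% of gene-assigned reads and 42.2% of the reads of the region list. That column assigns fewer reads in all, 2550096 and 2991202. The log2 ratio of Mir127 stayed near 0 and was the least settled value. It passed the test as lower in replicate 2 in the column without strand (−0.012) and with a minimum of 5 reads (−0.015), and as higher with no minimum (0.012) and with library totals (0.16). With a minimum of 50 reads it was 0.0065 and did not pass. The direction of its call thus turned over between settings. The ratio of Mir136 was 0.11 with library totals. The number of the 5 loci past the test was 3 or 4 in each setting, and that of all loci tested 211 to 240. In the column without strand only 4 of the 5 were tested, and all 4 passed, against 211 of 365 loci. The number of loci tested was not the same in each setting. With a minimum of 50 reads 211 of 283 passed, with no minimum 240 of 752, and in the main setting 227 of 389. Leaving out either of 2 replicates gives the value of the other library, which the report prints for levels, shares and folds, and is no check of stability. A pseudocount of 5 gave the same 10 nearest loci. No paired analysis was possible because there is 1 group. With 2 libraries no spread between animals can be estimated with any precision.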
